A study of Drosophila melanogaster with 12 samples.

Results

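The TNF, JNK and cell death genes are 10 named genes of Drosophila melanogaster among the 17737 gene identifiers in the count tables. The list was fixed by gene name rather than by a threshold on measured values, although earlier results of these data were known when it was drawn up. It holds the TNF ligand egr, the TNF receptor grnd, the JNK kinase bsk, the JNK phosphatase puc, the cell death activators rpr, hid and skl, the caspase inhibitor Diap1, the initiator caspase Dronc and the matrix metalloproteinase Mmp1. All 10 were found. Poly(A) RNA was sequenced from 12 samples in 4 groups of 3, and each sample has a table of whole-number counts per gene. The 4 groups were S2 cells given Atx2 dsRNA, S2 cells whose treatment label is none, brains of 3rd instar larvae with an Atx2 shRNA under elav gal4, and brains of 3rd instar larvae whose treatment label is none. S2 is a cultured line of embryonic origin with features of macrophage-like blood cells, and Atx2 encodes Ataxin-2, an RNA-binding protein. The elav driver is active in neurons, so other brain cells are not its intended targets. The sources used here do not give the genotype of the control brains, a control dsRNA or shRNA, or the number of animals per sample. Nothing states that replicates were separate cultures or animals, so every p-value below covers only the spread between the sampled libraries, which could be technical.

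In flies the TNF ligand Eiger, the product of egr, binds the receptors Grindelwald (grnd) and Wengen (wgn). The signal passes through adaptors and kinases to the Jun N-terminal kinase Basket (bsk), which activates AP-1. AP-1 raises puc, whose phosphatase turns Basket off again, and Mmp1, whose protease cuts extracellular matrix. The proteins of rpr, hid, skl and the related gene grim bind Diap1, a ubiquitin ligase that holds caspases in check. Release from Diap1 frees Dronc, which activates effector caspases such as Drice and Dcp-1. In the developing nervous system these antagonists are known for the removal of neuroblasts and surplus neurons, and cultured S2 cells are known to die when Diap1 is depleted.

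The S2 libraries with dsRNA held 14944637 to 20400465 counts each, against 25994555 to 29020252 in S2 control cells. Totals were 26442727 to 28086056 in shRNA brains, against 29754856 to 31579528 in control brains. Atx2 had 149, 55.3 and 166 CPM in S2 cells with dsRNA, against 242, 218 and 226 CPM in S2 control cells. CPM are counts relative to the library size after adjustment by the TMM method. The S2 change in Atx2 did not pass the threshold (log2 -0.89, adjusted p = 0.0613), although all 3 dsRNA libraries were below all 3 controls. This S2 change passed in 7 of 14 alternatives, among them DESeq2, no filter, the fit of all 12 libraries and each omission of a dsRNA library, and adjusted p-values over the 14 ran from 0.0139 to 0.311. In brain Atx2 had 92.4, 97.8 and 104.1 CPM with shRNA, against 187, 195 and 197 CPM in controls (log2 -0.97, edgeR adjusted p = 0.00271). Brain libraries stood apart for other tissues. Summed midgut markers reached 2098 CPM in shRNA brain 1, against at most 3.22 CPM in every other brain library, and salivary gland markers reached 1926 CPM in control brain 3, against at most 28.2 CPM in the others. The counts of brain calls are therefore also given without those 2 libraries.

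Of the 10 genes, 5 lie on chromosome 3L, and rpr, hid and skl share a stretch of it with grim. On the BDGP6 assembly hid spans 18167745 to 18185641, rpr 18397535 to 18398435 and skl 18438561 to 18439942, all on the minus strand. The 4 IAP antagonist genes thus fall within 272198 bases that hold 4 other protein-coding genes. Diap1 (16038410 to 16051034, minus strand) and Dronc (9968479 to 9971002, plus strand) are on the same arm. The gene egr is at 2R 10078366 to 10084210 (plus strand) and Mmp1 at 2R 24671294 to 24688184 (minus strand). The remaining genes are grnd at 2L 18485417 to 18488021 (plus strand), bsk at 2L 10247502 to 10250501 (minus strand) and puc at 3R 8105332 to 8122294 (plus strand). Part of the exon sequence of 3 genes also belongs to a gene on the opposite strand: 275 bases of grnd (13.1%) to kon, 347 bases of Diap1 to asRNA:CR45889 and 284 bases of Mmp1 (5.87%) to Pof. Whether the counting used strand is not given, and reads of these stretches cannot be assigned with certainty.

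In S2 cells with Atx2 dsRNA the TNF ligand gene egr fell 11.9-fold and the caspase inhibitor gene Diap1 fell 2.05-fold. The IAP antagonist genes rpr and hid and the initiator caspase gene Dronc rose, and the JNK target gene Mmp1 fell. Of the 8 genes with enough counts to be tested, 3 rose, 3 fell and 2 did not pass an adjusted p of 0.05 in edgeR's quasi-likelihood test. Among those that rose, hid reached the filter on low counts only through the dsRNA libraries. The background was high, since 55.0% of all 9058 genes tested in S2 cells passed, 28.5% higher and 26.6% lower. For 6 of the 8 genes no dsRNA library overlapped the controls, against 63.8% of all genes tested.

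The ligand gene egr had 31.6, 21.8 and 27.7 CPM in S2 cells with dsRNA, against 347, 310.5 and 311 CPM in S2 control cells. The groups were far apart, with every dsRNA library well below the lowest control. Its log2 fold change was -3.58 ± 0.16 (SE; edgeR adjusted p = 8.25e-06, n = 3 libraries a group). The receptor gene grnd was almost absent from S2 cells, with 6, 9 and 10 counts in dsRNA libraries and 1, 1 and 0 counts in control libraries. It did not reach the filter on low counts. The ratio of its scaled summed counts, 25 with dsRNA and 2 in control, was 13.3 (95% exact counting interval 3.33 to 116), and this interval covers counting error only. Without the filter the fitted change of grnd passed (edgeR adjusted p = 0.00864), but at 2 control counts the size of a fitted fold depends on the prior count.

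The kinase gene bsk had 78.1, 94.0 and 98.7 CPM in S2 cells with dsRNA, against 97.9, 109.6 and 105 CPM in S2 control cells. These ranges overlapped, and the change did not pass (log2 -0.21 ± 0.12, edgeR adjusted p = 0.173). With library totals alone as the scaling, bsk turned to log2 0.28. The phosphatase gene puc had 244, 251 and 261 CPM with dsRNA, against 273, 155 and 209 CPM in control. The dsRNA libraries lay close together inside the wider span of the controls, and the change did not pass (log2 0.25 ± 0.19, edgeR adjusted p = 0.299). Without control library 1, the highest of the group, puc passed at log2 0.45, and with library totals alone it passed at log2 0.74. Mmp1 had 127, 102 and 88.6 CPM with dsRNA, against 312, 222 and 273 CPM in control. Every dsRNA library was below every control, and the log2 fold change was -1.35 ± 0.18 (edgeR adjusted p = 0.000500). Of these 2 known JNK targets, then, the protease gene passed and the phosphatase gene did not, and the difference between them was not tested.

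Among the IAP antagonists, only rpr had more than 2 CPM in any S2 library. It had 74.5, 116 and 146 CPM with dsRNA, against 48.1, 37.2 and 35.5 CPM in control. No library overlapped between the groups, and the dsRNA libraries spread widely, with a coefficient of variation of 32.2% against 17.1% in control. Its log2 fold change was 1.48 ± 0.24 (edgeR adjusted p = 0.00153). The gene hid was near the floor of detection, with 21, 33 and 25 counts in dsRNA libraries and 18, 10 and 8 counts in control libraries. In CPM these were 0.876, 1.41 and 1.43 with dsRNA, against 0.742, 0.429 and 0.367 in control. At its control level hid would not have reached the filter on low counts. It was tested only because the dsRNA libraries were higher, which limits what its call can show. Its rise passed (log2 1.25 ± 0.40, edgeR adjusted p = 0.0289) but was lost when dsRNA library 2 or 3 or control library 2 or 3 was left out, with adjusted p-values of 0.0845 to 0.120. For skl there were 4, 4 and 3 counts with dsRNA and 4, 0 and 0 counts in control, too few for the filter. The gene grim had 0 counts in all 6 S2 libraries, which allows up to 0.0462 CPM over the dsRNA group and 0.0433 CPM over the control group. Within each S2 library rpr exceeded hid by 366 to 458 times with dsRNA and by 289 to 431 times in control, per kb of exon. Of the genes next to the antagonists, CG13700, beside grim, had 0 counts in every S2 library, and CG32196, beside skl, had 1.71 to 4.01 CPM with dsRNA, against 2.60 to 3.22 CPM in control. Both genes beside hid were too low for the filter in S2 cells. Of these, CG7320 was higher in every dsRNA library than in any control, and CG13699 overlapped between the groups.

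Diap1 had 292, 271 and 236 CPM in S2 cells with dsRNA, against 559, 498 and 584 CPM in S2 control cells. The groups were widely separated, at 266 ± 28.2 CPM with dsRNA and 547 ± 44.2 CPM in control (SD, n = 3 each). The log2 fold change was -1.04 ± 0.12 (edgeR adjusted p = 0.000290). Dronc had 139, 165 and 172 CPM with dsRNA, against 105, 97.9 and 97.5 CPM in control. All dsRNA libraries were above all controls, with a log2 fold change of 0.66 ± 0.11 (edgeR adjusted p = 0.00184). The calls on egr, rpr, Diap1, Dronc and Mmp1 were kept in every S2 alternative run, including each library left out.

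**Figure D1:**
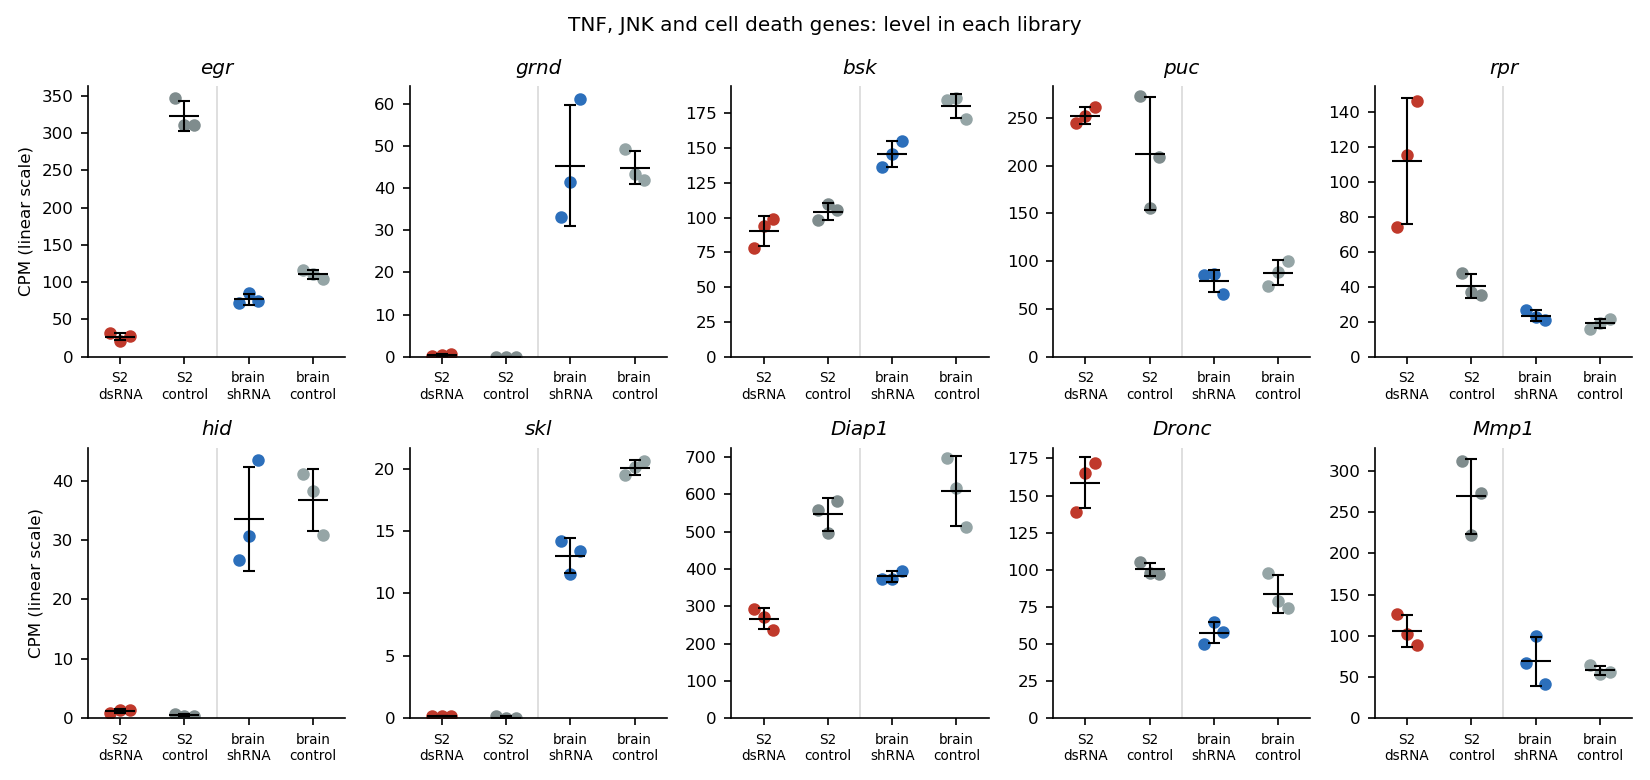
CPM of the 10 genes in each library (linear axes from 0, 1 panel a gene), with points for libraries and black bars for the mean and SD of 3 libraries. Within each panel the knockdown group stands left of its control; egr, Diap1 and Mmp1 are lower and rpr and Dronc higher in S2 cells with dsRNA, and grnd, hid and skl lie near 0 in S2 cells.

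The S2 calls depend in part on how libraries are scaled. With library totals alone 4906 genes were higher and 1324 lower, with upper quartile scaling 3406 and 1870, and with TMM 2580 and 2406. Library totals moved the median of all genes upward by 0.49 on the log2 scale, and upper quartile scaling by 0.18. Ratios between genes of the same library do not depend on scaling. The ratio of rpr to Diap1, per kb of exon, was 0.890, 1.49 and 2.16 in S2 cells with dsRNA, against 0.300, 0.261 and 0.212 in S2 control cells. In 2 of the 3 dsRNA libraries the antagonist thus had more reads per kb than its target, and in no control library. That crossing depends on the exon lengths used, 901 bases for rpr and 3143 bases for Diap1, which has 6 annotated transcripts. The ratio of Dronc to Diap1 was 0.743, 0.951 and 1.14 with dsRNA, against 0.294, 0.307 and 0.261 in control. These ratios were chosen after the values were seen and carry no test.

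**Figure D2:**
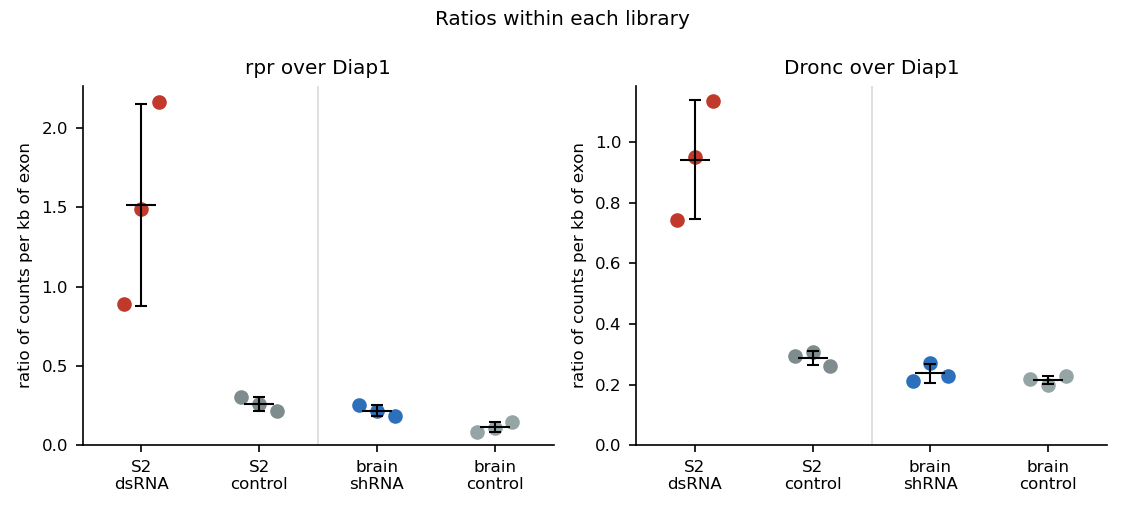
Ratios of rpr to Diap1 and of Dronc to Diap1 within each library, as counts per kb of exon (linear axes from 0), with points for libraries and black bars for the mean and SD of 3. In S2 cells the dsRNA libraries lie at 0.743 or above, and the S2 control libraries lie at 0.307 or below; in brain rpr to Diap1 is 0.183 to 0.252 with shRNA and 0.0808 to 0.147 in control.

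Genes around these members moved in both directions in S2 cells, where 55.0% of all genes tested passed, 28.5% higher and 26.6% lower. Of the 8 genes of the TNF ligand, receptor and adaptor list, 7 were tested, of which 2 rose, 4 fell and 1 did not pass, with a median log2 of -1.10 against 0.04 for all genes tested. With egr, the 4 that fell were the other receptor gene wgn (28.0 ± 3.07 CPM with dsRNA and 82.0 ± 9.98 CPM in control, log2 -1.55), Tab2, a partner of the kinase Tak1 (38.9 ± 4.77 CPM with dsRNA and 156 ± 23.1 CPM in control), and msn, a kinase upstream of JNK (401 ± 55.6 CPM with dsRNA and 861 ± 25.3 CPM in control, log2 -1.10). The 2 that rose, named after their values were seen, were the adaptor gene Traf6 (log2 0.57) and Tak1 (log2 0.40), the Tak1 call being lost without control library 2 or 3. Of the 10 genes of the JNK cascade and AP-1, 0 rose, 3 fell and 7 did not pass, with a median of -0.20. The 3 were wnd, a kinase of the cascade known from axon injury (17.5 ± 3.30 CPM with dsRNA and 67.1 ± 11.8 CPM in control), the AP-1 gene kay, the fly Fos (443 ± 80.8 CPM with dsRNA and 1073 ± 65.4 CPM in control), and Mkk4, whose call was lost in 7 of 14 alternatives.

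Of 14 damage and JNK target genes, 13 were tested, of which 6 rose, 3 fell and 4 did not pass, with a median log2 of 1.00. NLaz, upd1 and Timp reached the filter on low counts only through the dsRNA libraries. Over the S2 controls NLaz and upd1 had 8 and 1 counts. Genes this low in control could be tested only if they rose, which raises the count of higher genes and the median. The lipocalin gene NLaz rose to 2.32 ± 0.158 CPM with dsRNA, against 0.117 ± 0.0574 CPM in control (log2 4.26, edgeR adjusted p = 9.77e-05). The metalloproteinase inhibitor gene Timp rose to 6.12 ± 3.61 CPM with dsRNA, against 0.540 ± 0.231 CPM in control (log2 3.48). The cytokine gene upd1 had 81 counts over the dsRNA libraries and 1 count over the controls, a scaled ratio of 86.5 (95% exact counting interval 15.1 to 3458). The growth factor gene Pvf1 fell to 12.5 ± 1.79 CPM with dsRNA, against 102 ± 10.4 CPM in control (log2 -3.03). Target genes of this list were thus found at both ends of the range.

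Among 6 IAPs and ubiquitin partners 1 rose, 2 fell and 3 did not pass (median 0.15). With Diap1, the gene Det fell (log2 -0.57), a call lost with library totals alone and with upper quartile scaling. The rise of morgue (log2 0.33) passed in only 5 of 14 alternatives. Of 8 caspase and apoptosome genes 6 were tested, of which 2 rose, 2 fell and 2 did not pass (median 0.06). The caspase gene Strica fell to 18.4 ± 2.27 CPM with dsRNA, against 112 ± 6.10 CPM in control (log2 -2.62, edgeR adjusted p = 8.25e-06). Dredd, the caspase of the Imd immune pathway, rose with Dronc to 60.5 ± 3.66 CPM with dsRNA, against 38.9 ± 1.96 CPM in control. The effector caspase gene Dcp-1 fell (log2 -0.57), but not with library totals alone, and the effector Drice did not pass (log2 -0.29, edgeR adjusted p = 0.153).

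Among the 4 tested genes of the Bcl-2 and mitochondrial list, Buffy, a Bcl-2 family gene, rose to 1.95 ± 0.536 CPM with dsRNA, against 0.282 ± 0.207 CPM in control, and the cytochrome c gene Cyt-c-p fell to 143 ± 19.8 CPM with dsRNA, against 464 ± 29.6 CPM in control. With 9, 10 and 1 control counts, Buffy likewise reached the filter on low counts only through the dsRNA libraries. Of the 8 p53 and DNA damage genes 7 were tested, with 4 higher, 2 lower and 1 not passing (median 0.35). The checkpoint kinase gene mei-41 rose (log2 1.31), as did Irbp18, the partner of Xrp1 (log2 0.87), while the kinase genes lok (log2 -1.30) and tefu (log2 -0.85) fell, tefu not with library totals alone. Xrp1 rose as well (log2 0.76, edgeR adjusted p = 0.00183), a call kept in all 14 alternatives. Of 7 engulfment genes 0 rose, 4 fell and 3 did not pass (median -0.30), where 55.0% of all genes tested passed. The adaptor gene ced-6 fell to 51.9 ± 13.0 CPM with dsRNA, against 614 ± 182 CPM in control, and the receptor gene drpr to 173 ± 35.4 CPM with dsRNA, against 336 ± 11.6 CPM in control. The calls on crq and Ced-12 were lost in 5 and 6 of 14 alternatives, both scalings among them, and Ced-12 and Mkk4 turned sign with library totals alone. Hemocyte markers moved with these genes. Of 6 in the files, 4 were tested and all 4 fell, with summed levels of 214 to 277 CPM with dsRNA, against 1280 to 2001 CPM in control, and no marker of the list was at 0. The part of cell identity in the changes of egr, ced-6 or drpr was not tested.

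In brains with elav-driven Atx2 shRNA, 5 of the 10 genes fell and none rose: egr, bsk, skl, Diap1 and Dronc. The other 5, grnd, puc, rpr, hid and Mmp1, did not pass. Of all 10438 genes tested in brain 23.0% passed, 11.5% higher and 11.5% lower. For 5 of the 10 no shRNA library overlapped the controls, against 44.5% of all genes tested. Log2 fold changes ran from -0.68 to 0.30 over the 10 genes. The calls on brain genes were sensitive to single libraries: without control brain 2 none of the 5 passed, and without shRNA brain 2 only egr did. Without shRNA brain 1 and control brain 3, egr and Diap1 passed and 11.7% of all 10483 genes did. RNA of whole brains cannot tell fewer cells of a type from less RNA per cell.

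The ligand gene egr had 71.9, 85.2 and 74.2 CPM in shRNA brains, against 116, 111 and 105 CPM in control brains. The groups did not overlap, and the log2 fold change was -0.52 ± 0.09 (edgeR adjusted p = 0.0130). The receptor gene grnd, barely present in S2 cells, had 33.3, 41.4 and 61.2 CPM in shRNA brains, against 49.3, 43.3 and 42.0 CPM in control brains. Its shRNA libraries enclosed all the controls, so no difference could be seen (log2 0.01 ± 0.22, edgeR adjusted p = 0.971). The kinase gene bsk had 137, 145 and 155 CPM in shRNA brains, against 185, 186 and 171 CPM in control brains. It was lower in every shRNA library (log2 -0.31 ± 0.08, edgeR adjusted p = 0.0374), a small difference that passed in 6 of 15 alternatives and, with a library left out, only without shRNA brain 3.

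The JNK targets puc and Mmp1 had no call in brain. The feedback phosphatase gene puc had 85.8, 86.8 and 65.9 CPM in shRNA brains, against 74.5, 88.9 and 101 CPM in control brains (log2 -0.15 ± 0.15, edgeR adjusted p = 0.509). Mmp1 had 66.6, 99.3 and 41.02 CPM in shRNA brains, against 64.2, 53.5 and 56.6 CPM in control brains. The shRNA libraries ran both above and below the controls, with a coefficient of variation of 42.4% against 9.52% (log2 0.25 ± 0.29, edgeR adjusted p = 0.573). Body muscle markers had a summed level of 388, 1047 and 243 CPM in shRNA brains, against 84.4, 68.7 and 287 CPM in control brains, so that shRNA brain 2 was highest both for Mmp1 and for these markers. Without that library the log2 value of Mmp1 was -0.11, and the part of muscle RNA was not tested.

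All 4 IAP antagonist genes were measured in brain. The gene skl had 14.2, 11.5 and 13.4 CPM in shRNA brains, against 19.5, 20.1 and 20.7 CPM in control brains. The control libraries had a coefficient of variation of 2.83% and all lay above the shRNA libraries, with a log2 fold change of -0.62 ± 0.12 (edgeR adjusted p = 0.0159). The call passed in 9 of 15 alternatives. It was lost without control brain 1 or 2, without shRNA brain 2, without the 2 libraries that stood apart (adjusted p = 0.0527) and in the fit of all 12 libraries (adjusted p = 0.303). For hid there were 26.7, 30.7 and 43.4 CPM in shRNA brains, against 41.1, 38.2 and 30.9 CPM in control brains, overlapping ranges with no call (log2 -0.13 ± 0.20, edgeR adjusted p = 0.673). The gene rpr had 26.9, 22.9 and 20.8 CPM in shRNA brains, against 16.2, 19.4 and 21.6 CPM in control brains. Only the lowest shRNA library fell among the controls, and the difference did not pass (log2 0.30 ± 0.15, edgeR adjusted p = 0.184). The gene grim was low throughout, with 2.11, 1.62 and 2.90 CPM in shRNA brains, against 2.77, 2.80 and 2.61 CPM in control brains.

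Diap1 had 372, 373 and 396 CPM in shRNA brains, against 698, 617 and 513 CPM in control brains. The shRNA libraries were nearly equal and all below the more scattered controls, at 380.3 ± 13.6 CPM with shRNA and 609 ± 93.1 CPM in control (SD, n = 3 each). Its log2 fold change of -0.68 ± 0.12 (edgeR adjusted p = 0.0127) passed in 12 of 15 alternatives and, with a library left out, was lost without control brain 2 or shRNA brain 2. Dronc had 50.2, 64.8 and 58.2 CPM in shRNA brains, against 98.1, 78.7 and 74.5 CPM in control brains. Both the caspase gene and its inhibitor were thus lower with shRNA, Dronc by a log2 fold change of -0.54 ± 0.14 (edgeR adjusted p = 0.0358). The Dronc call passed in 8 of 15 alternatives, and of the 6 that each left out a library it held only without control brain 3. The ratio of Dronc to Diap1 overlapped between the groups, at 0.210, 0.271 and 0.229 in shRNA brains, against 0.219, 0.199 and 0.227 in control brains. The ratio of rpr to Diap1 was 0.252, 0.214 and 0.183 in shRNA brains, against 0.0808, 0.110 and 0.147 in control brains, with no overlap.

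**Figure D3:**
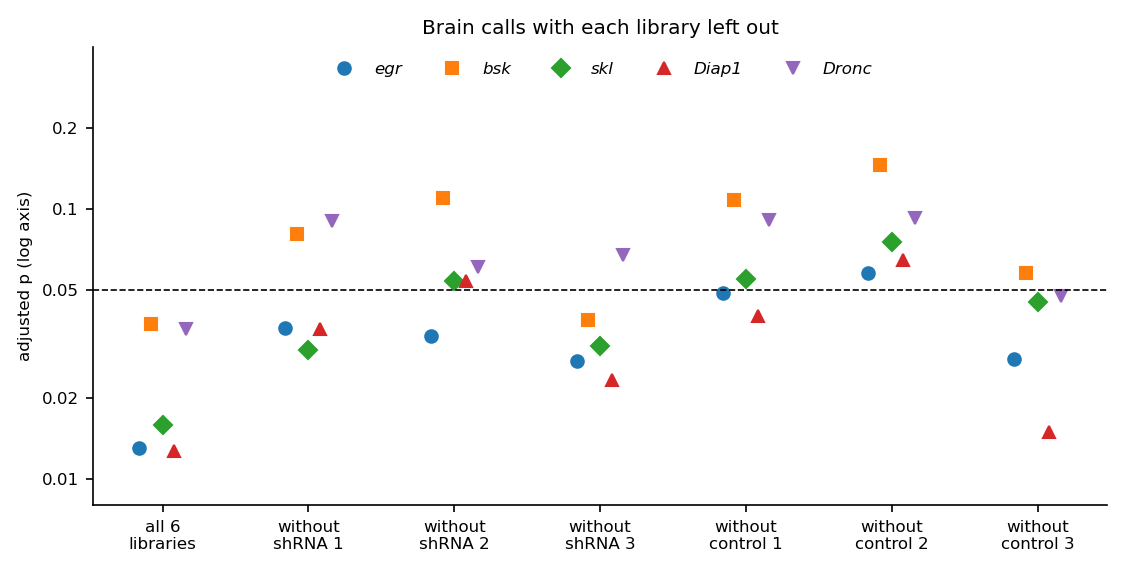
Adjusted p (edgeR, log axis) of the 5 genes that passed in brain, with all 6 libraries and with each library left out; the dashed line is the threshold of 0.05. Without control brain 2 all 5 lie above the line, while egr and Diap1 lie below it without either of the 2 libraries with markers of other tissues.

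Markers of brain cell types moved in the same libraries. Of 7 neuroblast and progenitor markers 6 fell, and their summed level was 528 to 713 CPM in shRNA brains, against 1574 to 1951 CPM in control brains. Of 7 glial markers 5 rose, with sums of 1683 to 2513 CPM in shRNA brains, against 1032 to 1355 CPM in control brains. Neuronal markers summed to 1787 to 2045 CPM with shRNA, against 1809 to 2298 CPM in control, with 1 of 7 higher and 2 lower. Imaginal disc markers summed to 297 to 341 CPM with shRNA, against 436 to 464 CPM in control, with 2 of 7 lower. Hemocyte markers summed to 296 to 475 CPM with shRNA, against 128 to 225 CPM in control, with 2 of 6 higher. Fat body markers summed to 788 to 3770 CPM with shRNA, against 382 to 714 CPM in control, with 1 of 6 higher. No marker of these 6 lists was at 0 in either brain group, and the part of such shifts in the lower levels of egr, bsk, skl, Diap1 and Dronc was not tested.

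The counts of the pathway lists in brain stand beside 23.0% of all genes tested that passed, 11.5% higher and 11.5% lower. Of the other genes of the pathway in brain, the TNF adaptor gene Traf4 had the firmest change. It had 42.6, 37.7 and 47.2 CPM in shRNA brains, against 112, 111 and 103 CPM in control brains, and its fall (log2 -1.36 ± 0.10, edgeR adjusted p = 0.00218) passed in all 15 alternatives. In its list 4 of 8 genes fell, the others being egr, msn (427 ± 33.5 CPM with shRNA and 606 ± 56.4 CPM in control) and Tak1, 0 rose and 4 did not pass, with a median log2 of -0.31 against 0.01 for all genes. Of the 10 genes of the JNK cascade and AP-1, bsk and Mkk4 fell and 8 did not pass (median -0.16). The calls on Tak1 and Mkk4 held in only 2 of 15 alternatives each. Among 14 damage and JNK target genes 2 rose, 0 fell and 12 did not pass (median 0.17). Gadd45, a stress-induced gene, rose to 58.8 ± 7.88 CPM with shRNA, against 27.5 ± 8.02 CPM in control (log2 1.10, edgeR adjusted p = 0.0202), and the filamin gene cher rose to 313 ± 40.5 CPM with shRNA, against 186 ± 28.1 CPM in control. In S2 cells with dsRNA Gadd45 rose too (log2 1.00, edgeR adjusted p = 0.000872), a call kept in all 14 alternatives. There cher fell instead (log2 -0.62, edgeR adjusted p = 0.0429), a call kept in 7 of 14.

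Of 4 IAP antagonists 1 fell (skl, list median -0.22) and 1 of 6 IAPs and partners fell (Diap1, median -0.18). Of 8 caspase and apoptosome genes 2 fell, Dronc and the effector caspase gene Drice (63.9 ± 7.503 CPM with shRNA and 91.1 ± 3.86 CPM in control, log2 -0.51), and 6 did not pass (median -0.06). Among the 4 tested Bcl-2 and mitochondrial genes 2 rose, Cyt-c-p (log2 0.71) and Debcl, a pro-death Bcl-2 gene (log2 0.36). Of 8 p53 and DNA damage genes the stress transcription factor gene Xrp1 rose (669 ± 77.9 CPM with shRNA and 458 ± 24.7 CPM in control, log2 0.55), the checkpoint kinase gene grp fell (log2 -0.39) and 6 did not pass. Of 6 tested engulfment genes crq rose (log2 0.32), Ced-12 fell (log2 -0.38) and 4 did not pass. These calls passed in 7 to 12 of 15 alternatives each, and they were lost without control brain 2, as were those on msn, Gadd45 and cher. Without shRNA brain 1 and control brain 3, the 9 lists kept 4 calls on lower genes (egr, Traf4, msn and Diap1) and 3 on higher genes (Gadd45, cher and Xrp1). The calls on Tak1, bsk, Mkk4, skl, Dronc, Drice, Cyt-c-p, Debcl, grp, crq and Ced-12 were lost there.

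**Figure D4:**
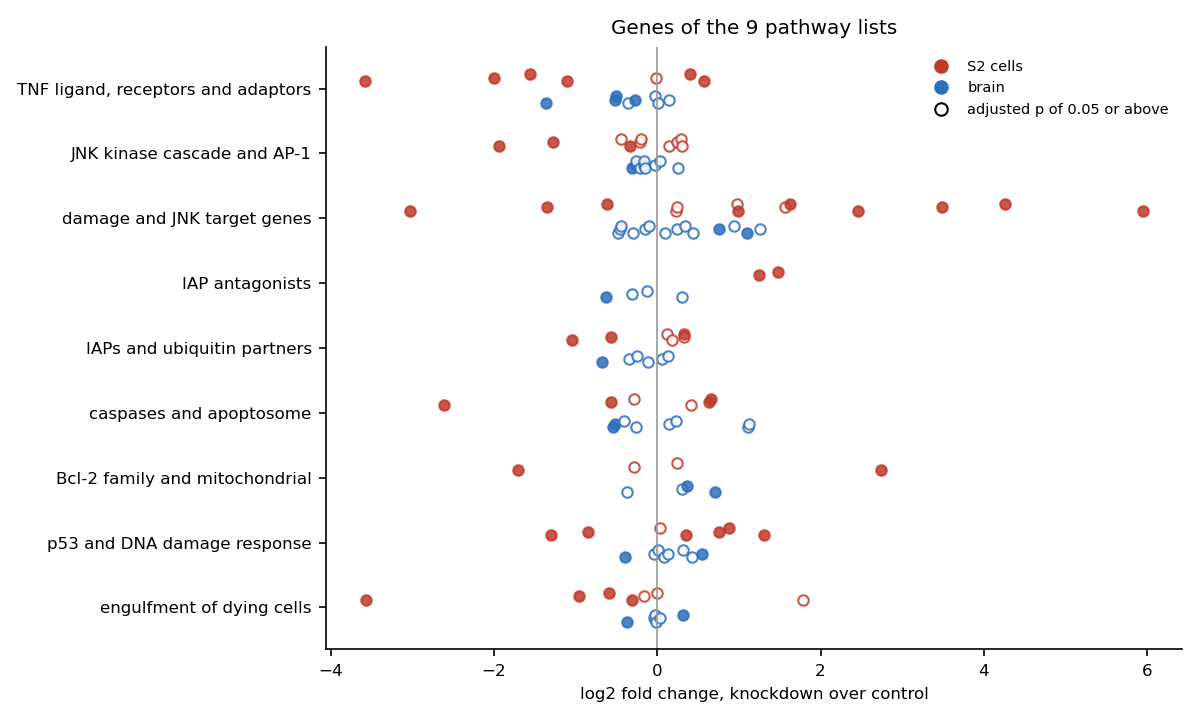
Log2 fold changes (knockdown over control) of the tested genes of 9 pathway lists, with S2 cells in red above brain in blue in each row; filled points passed an adjusted p of 0.05. S2 values span a wider range than brain values in most rows; the point farthest right is upd1 in S2 cells, a fitted value that rests on 1 control count.

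The effects in brain and in S2 cells were set against each other as an interaction in a fit of all 12 libraries, so that a positive value means a higher log2 fold change in brain. Of the 10 genes 6 passed, 2 with a higher and 4 with a lower value in brain, where 41.1% of all 11176 genes passed, 19.7% higher and 21.4% lower. The fall of egr was smaller in brain by 3.06 on the log2 scale (edgeR adjusted p = 1.61e-06), and the difference for Mmp1 was 1.60 (adjusted p = 0.00646). Dronc, higher in S2 cells with dsRNA and lower in brains with shRNA, differed by -1.19 (adjusted p = 0.000508). The antagonist genes rpr (-1.16, adjusted p = 0.0127) and hid (-1.36, adjusted p = 0.0217) also had lower values in brain. For grnd the fitted difference was -3.54 (adjusted p = 0.00217), which rests on 2 counts in S2 control cells.

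For the other 4 genes no difference between systems was shown. Diap1 fell in both, and its difference was 0.36 ± 0.18 (SE; edgeR adjusted p = 0.130), turning to -0.12 with library totals alone and passing at 0.51 without control brain 1 (adjusted p = 0.0347). The differences were -0.09 ± 0.13 for bsk (adjusted p = 0.594), -0.38 ± 0.28 for puc (adjusted p = 0.296) and -2.10 ± 0.86 for skl (adjusted p = 0.0728), whose S2 libraries held at most 4 counts each. With library totals alone, which shifted the median interaction of all genes by -0.47, bsk, puc and skl passed as well, and without S2 control library 1 puc (-0.63) and skl passed. The skl difference also passed with DESeq2. All-gene interaction calls with library totals alone were 1292 higher and 4413 lower in brain, with upper quartile scaling 1859 and 3039, and with TMM 2207 and 2388.

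**Figure D5:**
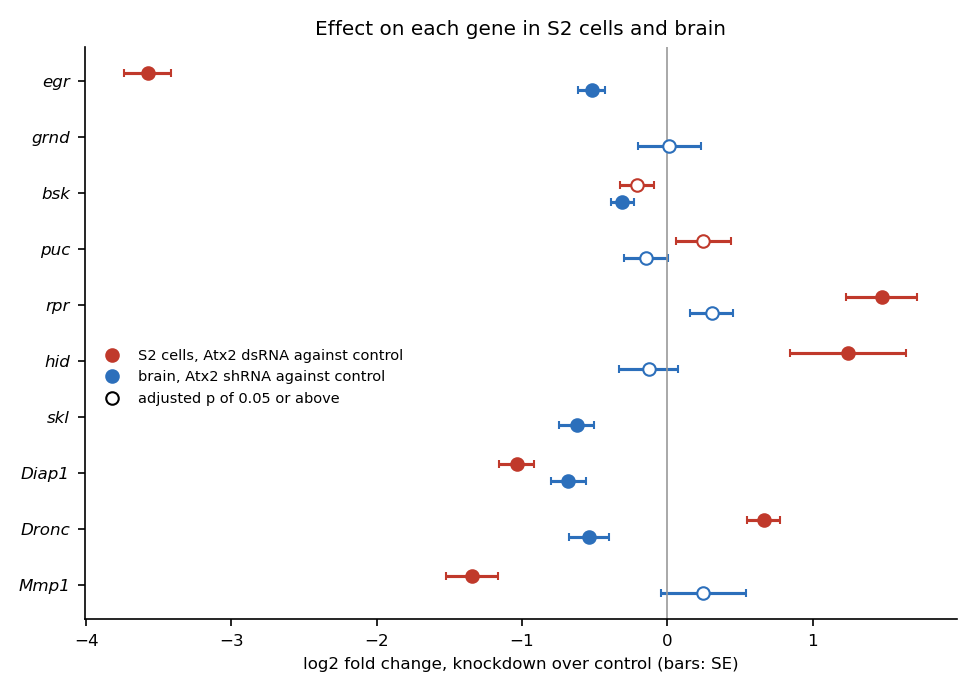
Log2 fold change (knockdown over control, bars SE) of each gene in S2 cells (red) and brain (blue); open points did not pass an adjusted p of 0.05, and grnd and skl were not tested in S2 cells. Diap1 lies left of 0 in both systems, Dronc lies on opposite sides, and egr is at -3.58 in S2 cells and -0.52 in brain.

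The control libraries give the levels of these genes in the 2 systems without knockdown. Levels between genes and systems are given here as CPM per kb of exon, scaled over all 12 libraries. Control brain libraries and control S2 libraries are the same ones used in the comparisons above. Diap1 was the highest of the 10 genes in both, at 184 ± 28.9 in control brains and 182 ± 16.9 in control S2 cells (SD, n = 3 each), with no detectable difference (log2 0.02 ± 0.13, edgeR adjusted p = 0.907). Of the 10 genes 4 were higher in brain and 5 lower, where 76.4% of all genes passed, 40.6% higher and 35.9% lower. At their levels in control S2 cells grnd, hid and skl would not have reached the filter on low counts. They were tested only through libraries where they were higher, which limits what their calls can show.

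The receptor gene grnd was at 20.3 ± 1.84 CPM per kb in control brains and 0.0141 ± 0.0122 CPM per kb in control S2 cells. Its 4073 brain counts against 2 S2 counts gave a scaled ratio of 1410.4 (95% exact counting interval 390.2 to 11650). The antagonist genes hid and skl were likewise higher in brain, hid at 8.67 ± 1.29 against 0.134 ± 0.0570 CPM per kb in control S2 cells (63.8-fold, edgeR adjusted p = 1.85e-08) and skl at 13.8 ± 0.330 against 0.0430 ± 0.0744 CPM per kb (1827 against 4 counts). The gene grim had 248 counts in control brains and 0 in control S2 cells, at least 57.2-fold higher against a floor of 3 counts over the S2 group. In contrast rpr was lower in brain, at 20.1 ± 2.78 against 46.9 ± 9.47 CPM per kb in control S2 cells (log2 -1.22, edgeR adjusted p = 0.000428).

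The ligand gene egr and the targets puc and Mmp1 were also lower in brain. Of all 14 listed damage and JNK target genes, 6 were higher in control brains, 6 lower and 2 did not pass. Among the higher were NLaz and upd1, too low in control S2 cells to reach the filter on low counts. Levels per kb were 48.5 ± 2.79 in control brains against 156 ± 14.8 in control S2 cells for egr (log2 -1.69, edgeR adjusted p = 5.31e-07), 26.3 ± 3.78 against 70.3 ± 21.5 for puc (log2 -1.42), and 11.4 ± 1.10 against 58.2 ± 11.4 for Mmp1 (log2 -2.35). The kinase gene bsk was higher in brain, at 84.8 ± 4.46 against 53.9 ± 1.63 CPM per kb (log2 0.65, adjusted p = 5.07e-05). The lower value of Dronc in brain, 39.4 ± 6.05 against 52.0 ± 3.84 CPM per kb (log2 -0.40, adjusted p = 0.0166), was lost in 7 of 20 alternatives, among them without S2 control library 1 (-0.34), control brain 2 (-0.36) or control brain 3 (-0.32), and was -0.02 with library totals alone. RLE scaling, DESeq2 and the fit without shRNA brain 1 and control brain 3 lost it too.

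The order of levels within a group changed with knockdown in S2 cells, while the first 4 genes in brain kept theirs. In S2 cells with dsRNA the order began with rpr at 130.4 ± 40.1, Diap1 at 89.2 ± 10.8, puc at 83.6 ± 1.55 and Dronc at 82.7 ± 7.70 CPM per kb, neighbours whose ranges overlapped. In S2 control cells it began with Diap1 and egr, whose ranges overlapped, and rpr had rank 7 of the 10 genes. With dsRNA egr had rank 7, at 13.1 ± 2.56 CPM per kb. In shRNA brains and in control brains alike the first 4 genes were Diap1, bsk, egr and Dronc. Their levels with shRNA were 116 ± 4.46, 69.2 ± 4.57, 34.2 ± 3.24 and 27.5 ± 3.59 CPM per kb, no neighbours among them overlapping. In control brains, Diap1, bsk and egr were apart and egr overlapped Dronc.

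The genes most like each member were found by Pearson r of log2(CPM + 1) over the 12 libraries, after the mean of each system was subtracted, among 8452 genes tested in both systems. Libraries of a group share their treatment and similar depth, so the values are descriptions. For egr the nearest were KdelR (r = 0.995), Doa (r = 0.995) and CG8765 (r = 0.995). The nearest to Diap1 were dsh (r = 0.979), Pep (r = 0.978) and fl(2)d (r = 0.975), and the nearest to rpr were CkIIalpha-i3 (r = 0.983), Atg18b (r = 0.977) and GstD5 (r = 0.976). Dronc was nearest to U2af50 (r = 0.973), TfIIB (r = 0.967) and MESR6 (r = 0.964), and Mmp1 to CG9521 (r = 0.986), UQCR-C1 (r = 0.955) and PIG-L (r = 0.950). For bsk they were CG5708 (r = 0.950), Jupiter (r = 0.949) and Snx3 (r = 0.945), for puc CG12795 (r = 0.931), lncRNA:Hsromega (r = 0.922) and CG10435 (r = 0.917), and for hid RhoU (r = 0.952), PIP4K (r = 0.934) and Not11 (r = 0.928). Between members, egr and rpr ran opposite (r = -0.91), as did Diap1 and rpr (r = -0.88), while egr and Diap1 ran together (r = 0.88).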

How the data were processed

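The authors deposited raw counts per gene for each of 12 libraries. Per the labels' protocols the kit was TruSeq mRNA. Reads were handled with cutadapt 1.13, STAR, HTSeq 0.6.1p1 and the BDGP6 build, per the submitters' processing notes. Annotation release, strand setting and filters: not given in the sources used here. The BDGP6.54 annotation gave symbols, positions and lengths of exons for 17599 of 17737 identifiers. The other 138 held 0.995 to 1.39% of counts and stayed in the tests. No replicate pair agreed within sampling noise (chi-square 22.1 to 154 per degree of freedom).

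Per system, genes passing filterByExpr (minimum count 10) were scaled by TMM and tested with edgeR 4.0.16 (quasi-likelihood F test; R 4.3.3). The interaction and the contrast of controls came from a fit of all 12 libraries. P-values were Benjamini-Hochberg adjusted over all genes, with a threshold of 0.05. Every adjusted p quoted comes from edgeR, except that the range over alternatives given for Atx2 in S2 cells also covers DESeq2. SE is the coefficient divided by the root of F. Counting intervals are exact binomial (95%). The scripts were tested on simulated data.

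Alternatives were RLE and upper quartile scaling, library totals alone, DESeq2 1.42.0, a filter of 5 CPM in 3 libraries or none, a replicate block, each library left out, 2 brain libraries left out, and a fit of all 12 libraries. The named genes are all members, up to 4 called genes of each list and system with the largest change, Atx2, neighbours of the IAP antagonists and the 3 most similar genes. Members, lists and tests were chosen with earlier results of these data known.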

Additional observations from a re-analysis of the deposited data

Results flagged for a closer look

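For 6 of the 10 genes the knockdown effect differed between brain and S2 cells by the interaction test in edgeR, given here as the log2 fold change in brain minus that in S2 cells. The values were 3.06 for egr (adjusted p = 1.61e-06), 1.60 for Mmp1 (adjusted p = 0.00646), -1.16 for rpr (adjusted p = 0.0127), -1.36 for hid (adjusted p = 0.0217), -1.19 for Dronc (adjusted p = 0.000508) and -3.54 for grnd (adjusted p = 0.00217). The differences for egr, Mmp1, rpr, Dronc and grnd passed in all 20 alternatives, and that for hid in 16 of 20, being lost without S2 control library 2 or 3, dsRNA library 2 or control brain 1 (-1.16 to -1.25, adjusted p = 0.0550 to 0.0625). Dronc had a call in each system with opposite signs, and the values of grnd and hid rest on 2 and 36 counts over the S2 control libraries.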

How the results depend on the processing

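The members' fold changes were recomputed in 13 to 20 alternatives for each gene and comparison. Of the 661 resulting values 600 kept direction and side of the threshold, 42 fell short of it, 10 newly passed and 9 turned sign; no value that turned sign had passed. The labels do not say whether replicate numbers pair the samples or mark a shared batch. Deviations of same-numbered libraries correlated at 0.38, 0.30 and -0.000965 in S2 cells and 0.10, 0.25 and -0.47 in brain. Those of differently numbered libraries correlated at -0.38 to 0.24 in S2 cells and -0.49 to 0.42 in brain, so pairing is not known. With the replicate block, 40 genes passed in brain instead of 2397, and 0 of the 10 members instead of 5, while S2 cells kept 6 members. In the block grnd turned to -0.0303. With 1 library left out, brain calls ranged over 494 to 2364 genes and 0 to 4 members; without shRNA brain 1 and control brain 3 they were 1231 genes and 2 members. The causes were not tested, beyond the smaller number of samples. Turned signs with library totals alone were bsk in S2 cells (0.28) and the Diap1 interaction (-0.12). With 1 library left out the log2 value ranged in brain from -0.26 to 0.19 for grnd, from -0.35 to 0.0126 for hid and from -0.11 to 0.52 for Mmp1, and between control brain and control S2 cells from -0.10 to 0.13 for Diap1. In S2 cells the total counts of called genes and members stayed within 1.5 times, but with library totals alone higher genes numbered 4906 against 2580 with TMM and lower genes 1324 against 2406. Depth limits grnd, hid, skl and grim in S2 cells, which held at most 33 counts a library.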
